A study of Mus musculus with 9 samples.

Results

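Transcripts of 10 genes typical of neutrophils were followed through 9 RNA-seq libraries of sorted brain myeloid cells. The genes were chosen by name, as products of neutrophil granules and of mature neutrophils, with earlier results of these data known. All 10 were matched by symbol among the 36528 gene numbers in the files. The cells were Cd11b+ cells sorted from the brains of mice aged 11 to 12 months. Tau-P301L mice, which carry a tau transgene with a mutation that occurs in inherited frontotemporal dementia, gave 5 libraries (2 female, 3 male). Their wild-type littermates gave 4 (2 female, 2 male). The sources used here name neither the strain nor the promoter of the transgene. Libraries are named by group and a number given in sample order. Since no label ties each library to its own animal, the spread behind every p-value is that between these samples, which may be technical.

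Cd11b is the integrin chain that pairs with Cd18 to form Mac-1. Microglia carry it, and so do neutrophils, monocytes and macrophages, so a sort on Cd11b keeps neutrophils that are in the brain, its vessels or its borders. Neutrophils fill their granules in sequence while they mature in the bone marrow. Azurophil granules with myeloperoxidase and elastase come first, then specific granules with lactoferrin, lipocalin and cathelicidin, then gelatinase granules. Cxcr2, the chemokine receptor that calls neutrophils out of the marrow, is acquired late. In healthy brain tissue neutrophils are rare outside the vessels.

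The member genes lie at several places in the genome (GRCm38.p6, RefSeq). S100a8 at chr3:90669071-90670034 and S100a9 at chr3:90692630-90695721 are neighbours. Ngp at chr9:110419808-110423012, Camp at chr9:109847377-109849456 and Ltf at chr9:111019292-111042766 share a stretch of chromosome 9. Mmp8 at chr9:7558429-7568486 lies elsewhere on it. Lcn2 at chr2:32384637-32387739, Mmp9 at chr2:164940326-164955850, Retnlg at chr16:48872608-48874498 and Cxcr2 at chr1:74153994-74161246 complete the set. All 10 are protein-coding.

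RefSeq start-site windows (GRCm38.p6) were matched for 9 of the 10 members, all but Mmp9. The 250 bases before the annotated start are printed for S100a8, S100a9 and Ngp, because these members had the most reads and are the ones that passed the filter on low counts. The windows are chr3:90668821-90669070 on the plus strand for S100a8, chr3:90695722-90695971 on the minus strand for S100a9 and chr9:110419558-110419807 on the plus strand for Ngp, each written 5′ to 3′ on the gene's strand. Capitals mark matches to 2 motifs searched on both strands. TTNNGNAAT is a form of the site bound by C/EBP factors, and GAGGAAG is a form of the site bound by PU.1. Both families act in granulocyte development.
S100a8: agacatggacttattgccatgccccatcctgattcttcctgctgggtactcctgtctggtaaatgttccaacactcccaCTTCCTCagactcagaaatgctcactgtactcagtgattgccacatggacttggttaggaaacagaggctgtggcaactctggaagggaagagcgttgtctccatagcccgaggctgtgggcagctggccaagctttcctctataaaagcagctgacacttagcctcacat
S100a9: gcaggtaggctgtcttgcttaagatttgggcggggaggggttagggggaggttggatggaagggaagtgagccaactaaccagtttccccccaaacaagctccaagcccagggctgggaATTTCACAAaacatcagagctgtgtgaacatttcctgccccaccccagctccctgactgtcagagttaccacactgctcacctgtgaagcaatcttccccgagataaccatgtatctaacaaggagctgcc
Ngp: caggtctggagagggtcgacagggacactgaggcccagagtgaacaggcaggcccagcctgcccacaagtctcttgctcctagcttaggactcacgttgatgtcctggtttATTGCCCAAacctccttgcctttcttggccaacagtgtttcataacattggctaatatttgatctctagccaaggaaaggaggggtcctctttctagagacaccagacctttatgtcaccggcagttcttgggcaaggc
The capitals in S100a8 are a PU.1-type match, 171 to 165 bases before the start. Those in S100a9 and Ngp are C/EBP-type matches, 131 to 123 and 139 to 131 bases before it. In these 3 windows the motif lies on the opposite strand, so the capitals read as its reverse complement. Over the members, the C/EBP-type motif was in 3 of 9 windows (S100a9, Ngp and Ltf) and in 10.2% of all 32851 windows of this length. The PU.1-type motif was in 3 of 9 (S100a8, Lcn2 and Mmp8) and in 10.6% of all windows. No member window held both. These are letter matches and do not show binding.

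The libraries held 1494727 to 3793606 reads in genes. Levels are given as CPM, reads per 1000000 of a library size scaled by edgeR's TMM method, unless RPKM is named. On that scale 3 reads were worth 0.823 to 2.07 CPM, depending on the library. A count of 0 therefore allows a level up to about that value, and such limits cover counting error only. As a check of the sort label, 10 microglial markers all passed the low-count filter and summed to 8566 to 15255 CPM. Genes with 10 or more reads numbered 9063 in Tau-P301L library 5, the shallowest, 9928 in Tau-P301L library 3 and at least 10589 in each of the others.

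Neutrophil transcripts were present in a few libraries and nearly absent in the others. The 10 genes together had 1097 reads, of which Tau-P301L library 4, from a male, held 715, or 65.2%. Wild-type library 3, also from a male, held 223 reads, wild-type library 4 held 82 and wild-type library 1 held 52. The other libraries held 1 (wild-type 2), 1 (Tau-P301L 1), 4 (Tau-P301L 2), 11 (Tau-P301L 3) and 8 (Tau-P301L 5). Thus 97.7% of the member reads came from 4 of 9 libraries, of which 3 were wild-type and 1 was Tau-P301L. As summed CPM, wild-type libraries 1 to 4 stood at 15.8, 0.338, 84.8 and 22.5, and Tau-P301L libraries 1 to 5 at 0.315, 1.41, 4.90, 303.3 and 5.52. Wild-type libraries averaged 30.9 ± 37.1 CPM (SD, n = 4) against 63.1 ± 134.3 CPM for Tau-P301L (SD, n = 5), so each SD exceeded its mean. Without library 4 the Tau-P301L mean was 3.04 ± 2.56 CPM (SD, n = 4). In bulk samples fewer cells of a type and less RNA per cell cannot be told apart.

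**Figure D1:**
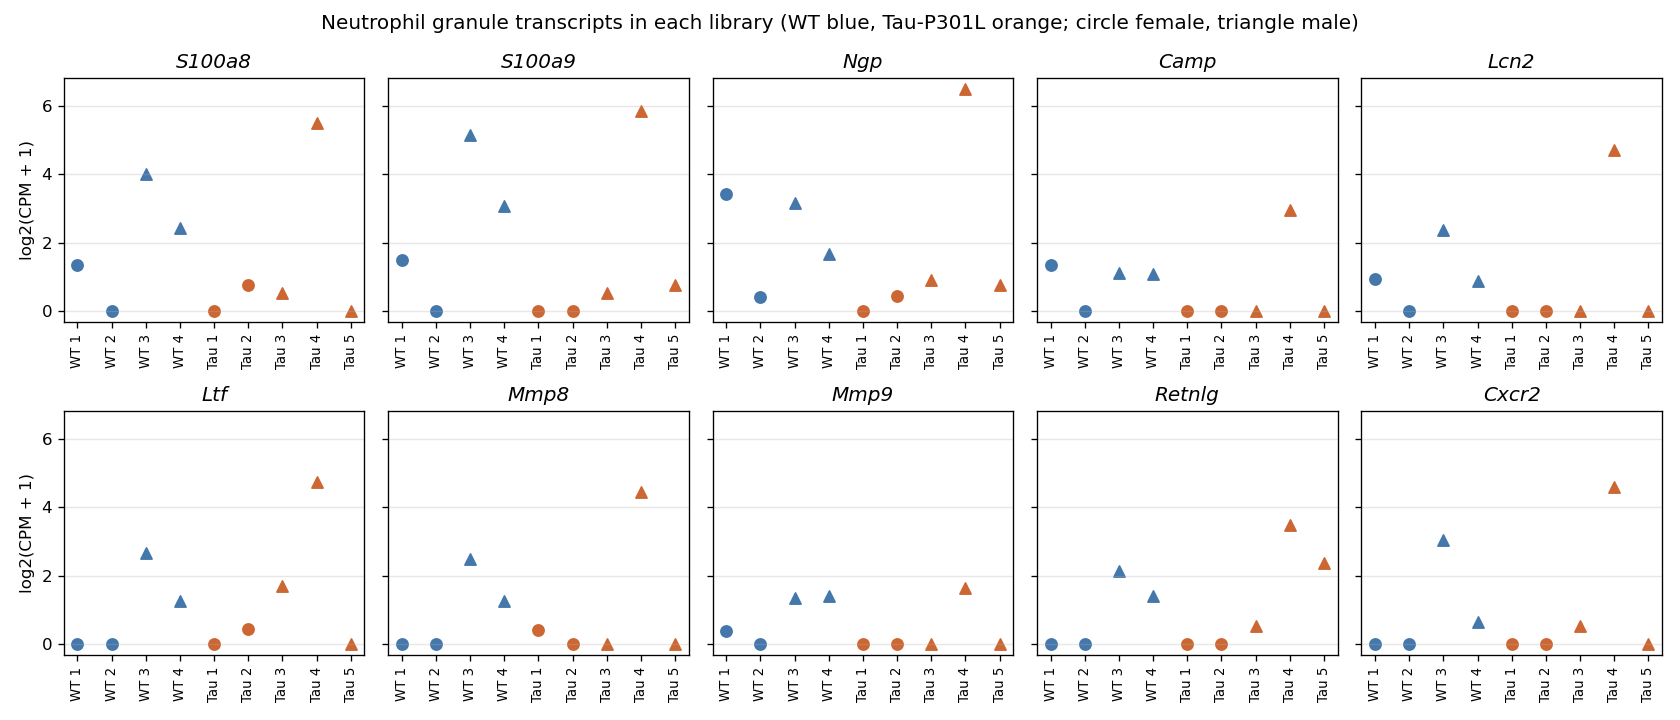
Level of each of the 10 genes in every library, as log2(CPM + 1) on the vertical axis, with libraries along the horizontal axis (wild-type blue, Tau-P301L orange, circles female, triangles male). Each point is 1 library, and all 10 genes have their highest point in Tau-P301L library 4.

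S100a8 and S100a9 encode calcium-binding proteins that form calprotectin, a metal-binding complex that fills the neutrophil cytosol and acts as an alarm signal outside the cell. S100a8 had 5, 0, 40 and 16 reads in wild-type libraries 1 to 4, or 1.52, 0, 15.2 and 4.39 CPM. In Tau-P301L libraries 1 to 5 it had 0, 2, 1, 105 and 0 reads, or 0, 0.707, 0.445, 44.5 and 0 CPM. The groups overlapped, with a single Tau-P301L library above all wild-type libraries and the other 4 at or below 2 reads. S100a9 had 6, 0, 90 and 27 reads in wild-type libraries, or 1.83, 0, 34.2 and 7.41 CPM. Its Tau-P301L reads were 0, 0, 1, 135 and 1, or 0, 0, 0.445, 57.3 and 0.690 CPM. The partner genes thus ordered the 4 libraries with more than 2 reads in the same way, from Tau-P301L 4 through wild-type 3 and wild-type 4 to wild-type 1.

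Ngp, Camp, Lcn2 and Ltf encode proteins of the specific granules. Ngp, neutrophilic granule protein, had the most reads of the set, 274. It stood at 32, 1, 21 and 8 reads in wild-type libraries 1 to 4 (9.74, 0.338, 7.98 and 2.19 CPM). In Tau-P301L libraries it stood at 0, 1, 2, 208 and 1 reads (0, 0.354, 0.891, 88.2 and 0.690 CPM). Ngp differed from the calprotectin genes in its second library, which was wild-type 1 and not wild-type 3. Camp, the precursor of the cathelicidin antimicrobial peptide, had 5, 0, 3 and 4 reads in wild-type libraries and 16 in Tau-P301L library 4, with 0 in the other Tau-P301L libraries. Lcn2, a lipocalin that withholds iron from bacteria by binding their siderophores and that reactive astrocytes also make, had 3, 0, 11 and 3 reads in wild-type libraries. Its 59 further reads were all in Tau-P301L library 4, at 25.0 CPM. Ltf, lactoferrin, an iron-binding protein, had 0, 0, 14 and 5 reads in wild-type and 0, 1, 5, 60 and 0 in Tau-P301L libraries, with 25.4 CPM in library 4. Camp and Lcn2 had reads in the same 4 libraries and in no other, and so did Mmp9.

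Mmp8 encodes neutrophil collagenase and Mmp9 gelatinase B, the enzyme of the gelatinase granules. Mmp8 had 0, 0, 12 and 5 reads in wild-type and 1, 0, 0, 49 and 0 in Tau-P301L libraries, and reached 20.8 CPM in library 4. Mmp9 had only 16 reads in all: 1, 0, 4 and 6 in wild-type libraries and 5 in Tau-P301L library 4. Its highest level, 2.12 CPM, was near that of 3 reads, and its order across libraries is not resolved at this depth.

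Retnlg encodes a resistin-like protein of mature neutrophils, and Cxcr2 the receptor for neutrophil-attracting CXC chemokines. Retnlg had 0, 0, 9 and 6 reads in wild-type and 0, 0, 1, 24 and 6 in Tau-P301L libraries. It was the one member whose second highest level was in another Tau-P301L library, number 5, at 4.14 CPM against 10.2 CPM in library 4. Cxcr2 had 0, 0, 19 and 2 reads in wild-type and 0, 0, 1, 54 and 0 in Tau-P301L libraries, with 22.9 CPM in Tau-P301L library 4 and 7.22 CPM in wild-type library 3. Wild-type library 1 had no read of Ltf, Mmp8, Retnlg or Cxcr2, although it held 32 of Ngp.

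Levels of different genes were compared on the deposited RPKM scale, which accounts for gene length. In Tau-P301L library 4 the deposited RPKM was 27.9 for S100a8, 26.8 for S100a9 and 18.7 for Ngp. It was 7.21 for Lcn2, 4.11 for Retnlg, 2.78 for Camp, 2.28 for Ltf, 2.08 for Mmp8, 1.80 for Cxcr2 and 0.154 for Mmp9. In wild-type library 3 the order began with S100a9 at 16.1, S100a8 at 9.58 and Ngp at 1.70. Per length, the calprotectin genes therefore led in both of the libraries with most member reads, and Mmp9 was lowest in both.

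The genes rose in the same libraries. Tau-P301L library 4 was the highest of the 9 libraries for 10 of 10 members, against 9.86% of the 12250 tested genes. Since 7 members were not among the tested genes, the share was also taken over the 16614 genes with at least 16 reads, the count of the least read member, and was 10.1%. Wild-type library 3 was second for 6 of the members. Correlations over the 9 libraries were computed for the 36 pairs of the 9 members with at least 20 reads, on log2(CPM + 1). Spearman's rho was above 0 for 36 of 36 pairs, with a median of 0.732 and a range of 0.429 to 0.98. Over all pairs of tested genes rho was above 0 for 49.27%, and over all pairs of the 15897 genes with at least 20 reads for 49.48%. With exact permutation tests, two-sided and Benjamini-Hochberg adjusted over the 36 pairs, 18 pairs passed 0.05 by Spearman's rho. All 36 passed by Pearson's r (median 0.904). The members were chosen with earlier results of these data known and share their libraries, so these p-values describe the pairs and are not separate findings.

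S100a8 and S100a9 had r = 0.977 (exact permutation p = 0.000248, adjusted p = 0.00476) and rho = 0.845 (exact p = 0.00817, adjusted p = 0.0267). Without wild-type library 3 and Tau-P301L library 4, the libraries farthest from the median of S100a8, their r was 0.901. Camp and Lcn2 had the highest rho of the set, 0.98 (exact p = 0.00132, adjusted p = 0.00933), with r = 0.945 (exact p = 0.000992, adjusted p = 0.0051) and 0.884 without the 2 farthest libraries. Ltf and Cxcr2 had rho = 0.934 (exact p = 0.00132, adjusted p = 0.00933) and r = 0.963 (exact p = 0.000661, adjusted p = 0.00476), and 0.934 without 2 libraries. In the libraries then left Cxcr2 had 2 reads in wild-type library 4, 1 in Tau-P301L library 3 and 0 in the others. That value therefore rests on very few reads. The 0.884 of Camp and Lcn2 rests likewise on 3 and 4 reads of Camp, in wild-type libraries 3 and 4. The lowest rho was that of Camp and Retnlg, 0.429 (exact p = 0.247, adjusted p = 0.247), with r = 0.664 (exact p = 0.0433, adjusted p = 0.0433) and 0.564 without 2 libraries. For Lcn2 and Retnlg r went from 0.77 (exact p = 0.0152, adjusted p = 0.0177; rho 0.515, exact p = 0.166, adjusted p = 0.187) to 0.0447 without the 2 farthest libraries, so that this relation rests on those libraries. Over the 36 pairs r without 2 libraries was above 0 for 36, with a median of 0.708. The libraries left out were the 2 farthest from the median of the first gene of each pair, so they differed between pairs. Pairs led by Ngp or Camp left out wild-type library 1 and Tau-P301L library 4. Retnlg with Cxcr2 left out Tau-P301L libraries 4 and 5. These pairs kept wild-type library 3, so the median is not that of a common set of libraries.

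With the mean of each genotype group subtracted, 36 of 36 pairs still had rho above 0 (median 0.715). With the mean of each sex subtracted, a step added after the data were seen, all 36 were above 0 too (median 0.852). After each library was thinned to the reads of the shallowest, all 36 were above 0 as well (median 0.841). When both Tau-P301L library 4 and wild-type library 3 were left out, 31 of 36 were above 0 (median 0.432, lowest -0.0445), over 7 libraries in which most members had few reads. No correlation is given within a sex, which has 4 or 5 libraries.

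**Figure D2:**
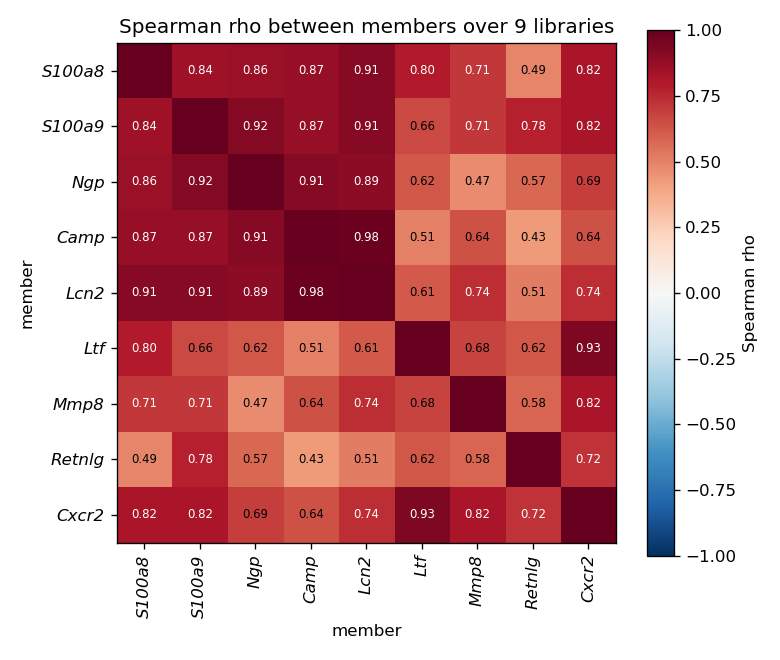
Spearman's rho between each pair of the 9 members with at least 20 reads, over 9 libraries, with members on both axes and colour from -1 (blue) to 1 (red). All 36 pairs lie between 0.429 and 0.98, with the darkest cell at Camp and Lcn2 and the palest at Camp and Retnlg.

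The make-up of the member reads differed between libraries. Shares are given with 95% Wilson intervals, which cover counting error only. Ngp took 61.5% of the 52 member reads of wild-type library 1 (48.0 to 73.5%) and 29.1% of the 715 of Tau-P301L library 4 (25.9 to 32.5%). It took 9.42% of the 223 of wild-type library 3 (6.24 to 14%) and 9.76% of the 82 of wild-type library 4 (5.03 to 18.1%). The intervals of wild-type libraries 1 and 3 and Tau-P301L library 4 do not meet. S100a9 showed the opposite order, with 40.4% in wild-type library 3 (34.1 to 46.9%), 32.9% in wild-type library 4 (23.7 to 43.7%), 18.9% in Tau-P301L library 4 (16.2 to 21.9%) and 11.5% in wild-type library 1 (5.40 to 23.0%). S100a8 varied less, from 9.62% in wild-type library 1 (4.18 to 20.6%) to 19.5% in wild-type library 4 (12.4 to 29.4%). Cxcr2 took 7.55% in Tau-P301L library 4 (5.83 to 9.72%), 8.52% in wild-type library 3 (5.52 to 12.9%) and 0 of 52 reads in wild-type library 1, with an upper bound of 6.88%.

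The ratio of Tau-P301L library 4 to wild-type library 3 shows the same spread gene by gene, and compares those libraries, not the genotypes. It was 11.1 for Ngp (95% exact counting interval 7.04 to 18.2), 5.99 for Lcn2 (3.11 to 12.6), 4.78 for Ltf (2.64 to 9.27) and 4.56 for Mmp8 (2.39 to 9.41). It was lower for Cxcr2 at 3.17 (1.85 to 5.67), Retnlg at 2.98 (1.34 to 7.28), S100a8 at 2.93 (2.02 to 4.33) and S100a9 at 1.67 (1.27 to 2.21). Camp at 5.95 (1.70 to 31.9) and Mmp9 at 1.40 (0.30 to 7.03) had too few reads to place. The 3 specific-granule genes with enough reads and the collagenase thus had higher ratios than the calprotectin genes. The interval of Ngp lies above those of both, while those of Lcn2, Ltf and Mmp8 lie above that of S100a9 and overlap that of S100a8.

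**Figure D3:**
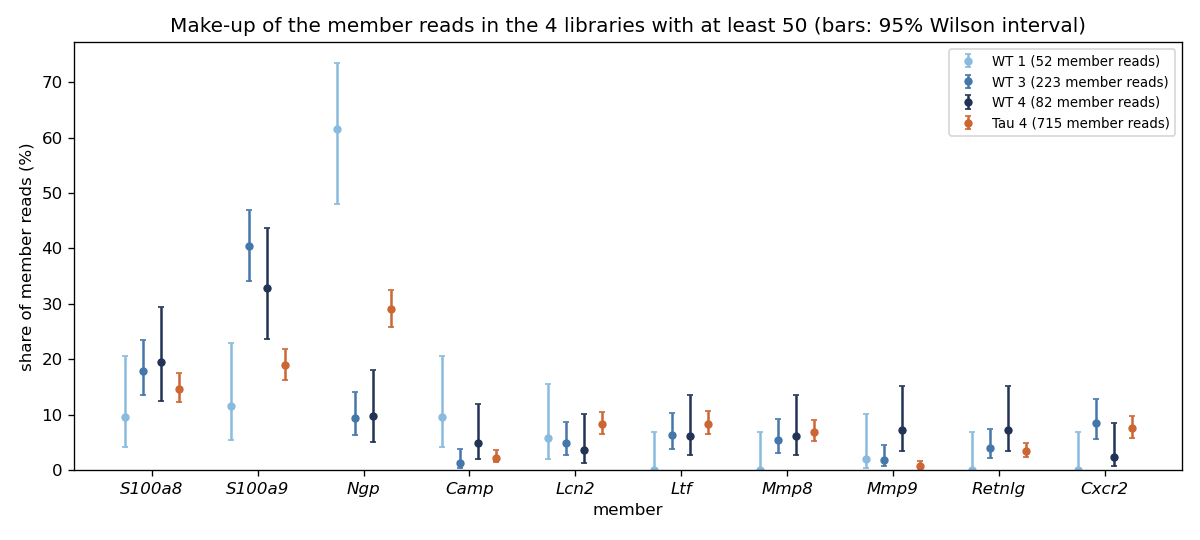
Share of the member reads taken by each gene (vertical axis, %) in the 4 libraries with at least 50 member reads, with 95% Wilson intervals as bars. Ngp takes 61.5% in wild-type library 1 and 9.42% in wild-type library 3, while S100a9 takes 11.5% and 40.4%.

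Genotype, the comparison the labels set up, gave no call for these genes. The low-count filter kept 3 members, S100a8, S100a9 and Ngp. S100a8 averaged 5.28 ± 6.86 CPM over the 4 wild-type and 9.14 ± 19.8 CPM over the 5 Tau-P301L libraries (mean ± SD), S100a9 10.9 ± 15.9 and 11.7 ± 25.5 CPM, and Ngp 5.06 ± 4.51 and 18.0 ± 39.2 CPM. The SD of the Tau-P301L group, which library 4 sets, exceeded the difference for each gene, while for Ngp the wild-type SD was smaller than it. Of the 12250 genes tested with edgeR, 0.00816% passed an adjusted p of 0.05 (1 gene, Rfk, riboflavin kinase), and 0 of the 3 members did. The log2 fold change of Tau-P301L over wild-type was 0.19 for S100a8 (SE 1.36, edgeR adjusted p = 0.987), -0.63 for S100a9 (SE 1.33, adjusted p = 0.944) and 0.26 for Ngp (SE 2.52, adjusted p = 0.99). None had an unadjusted p under 0.05, which 6.35% of tested genes had. limma-voom called 0 of the 3 as well, and DESeq2, which called 0.22% of tested genes, gave no p for any of them. The direction was not stable: S100a8 stood at -0.13 in DESeq2 and -0.70 in limma-voom, and Ngp at -0.76 in DESeq2. S100a9 had a lower fitted value in Tau-P301L although its mean CPM there was slightly higher. With standard errors of 1.33 to 2.52 log2 units, changes of several-fold in either direction could not be resolved. The groups overlapped for all 10 members, as they did for all but 2.47% of the tested genes, of which 3 are members.

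The genotype estimates turned on Tau-P301L library 4. Without it no member passed the low-count filter, so fits with no filter are given. With all 9 libraries and no filter, 7 members had higher and 3 lower estimates in Tau-P301L, with a median of 0.46 (0.03 over the 24752 genes in that fit). No member passed there, with adjusted p from 0.82 to 0.999, against 0.105% of genes. A fit that also left out library 4 was added after the data were seen. It drops the highest library of one group for its member level and keeps that of the other, so its direction follows in part from the choice. There 10 of 10 had lower estimates (median -3.32, against 0.002 over 24485 genes, of which 49.9% had lower estimates). Camp, Lcn2 and Mmp9 have no read in the Tau-P301L libraries then left. Set against 3 reads over that group, their pooled wild-type levels were 3.10-fold, 4.39-fold and 2.84-fold higher. These bounds take the wild-type level as exact and leave out the counting error of its 12, 17 and 11 reads. With the bounds in place of the fitted values the median of the 10 members was -2.14. S100a9 alone passed in that fit, at -5.07 on the log2 scale (SE 1.13, adjusted p = 0.00785), as did 0.355% of genes. S100a8 stood at -3.15 (SE 1.25, adjusted p = 0.383) and Ngp at -3.49 (SE 1.14, adjusted p = 0.191). An unadjusted p under 0.05 was reached by 5 of 10 members and 7.82% of genes. Ltf, with 19 wild-type and 6 Tau-P301L reads, and Retnlg, with 15 and 7, had the smallest differences, -0.53 and -0.20. Wild-type library 2, with 1 member read, was as low as these Tau-P301L libraries. With wild-type library 3, the highest of its group, left out too, 8 of 10 members had lower estimates and 0 passed (adjusted p from 0.911 to 0.996), against 0.0331% of genes. In that fit S100a9 stood at -3.92 (SE 1.63, adjusted p = 0.911), and 2 members had an unadjusted p under 0.05. The call for S100a9 was thus lost without wild-type library 3, while its estimate stayed negative and its SE rose. Whether leaving out another library would also undo the call was not tested.

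**Figure D4:**
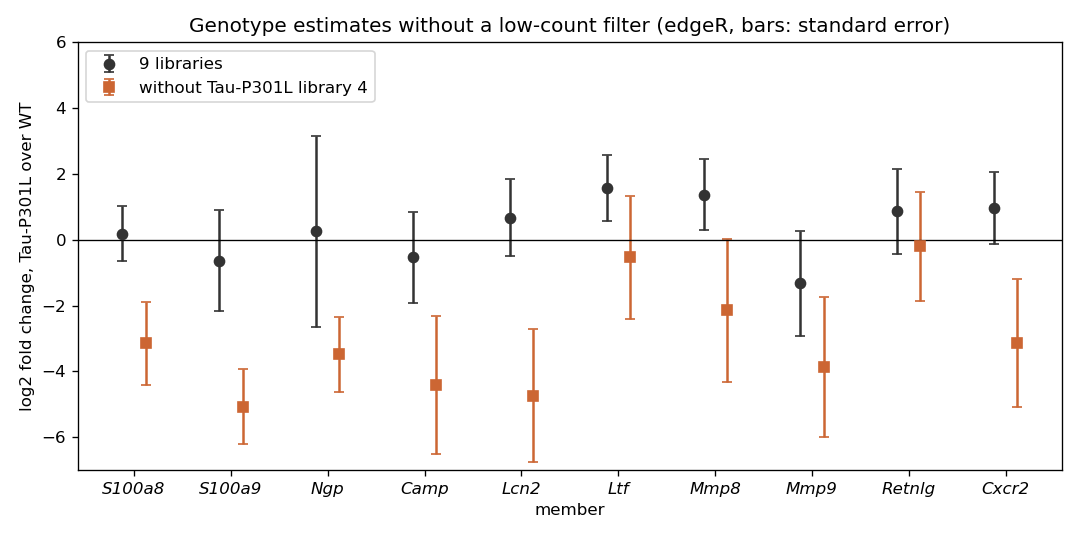
Genotype estimate of each member without a low-count filter (log2 fold change of Tau-P301L over wild-type, edgeR, bars are standard errors), with all 9 libraries (circles) and without Tau-P301L library 4 (squares). All 10 squares lie below 0, while 7 of 10 circles lie above it.

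Most member reads came from males. The 5 male libraries held 1039 member reads and the 4 female libraries 58, of which 52 were in wild-type library 1. Among males the summed level ran from 4.90 to 303.3 CPM with a median of 22.5, and among females from 0.315 to 15.8 CPM with a median of 0.876, so the sexes overlapped. In the main fit the log2 difference of males over females was 4.37 for S100a8 (SE 1.42), 5.45 for S100a9 (SE 1.57) and 2.71 for Ngp (SE 2.31). Each had an edgeR adjusted p of 0.9999, and 0 of 3 passed, against 0.049% of tested genes. S100a8 and S100a9 had unadjusted p of 0.00853 and 0.00494, which 2.43% of genes had under 0.05. limma-voom also called 0 of 3, and DESeq2 gave no p.

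The sex result changed with the processing. With no low-count filter 4 of 10 members were called higher in males, against 0.0566% of genes: S100a8 (4.38, SE 0.88, adjusted p = 0.00479), Ltf (5.66, SE 1.20, adjusted p = 0.00595), Mmp8 (5.36, SE 1.28, adjusted p = 0.0432) and Cxcr2 (adjusted p = 0.00176). Tau-P301L libraries 3 and 5, which have the fewest genes with 10 or more reads, are also the males with the lowest member levels (4.90 and 5.52 CPM), so leaving them out raises the male mean. Without them 4 were called, against 0.0625% of genes: S100a8 (4.99, adjusted p = 0.0342), S100a9 (5.91, adjusted p = 0.0165), Ltf (6.79, adjusted p = 0.0158) and Mmp8 (6.54, adjusted p = 0.0334). Ngp, Lcn2 and Cxcr2 were tested there and not called. The low-count filter, run again on the libraries left, had kept Lcn2, Ltf, Mmp8 and Cxcr2, which the main fit dropped. Over all libraries Ltf and Mmp8 had 84 and 66 male reads and 1 female read each. They thus passed the filter on male reads, and their calls draw on those same reads. With no filter and without Tau-P301L library 4 none was called. Retnlg and Cxcr2 had no read in any female library, so their fitted differences depend on the prior count and are no measure of size. Those of Ltf and Mmp8 rest on 1 female read each and are no firm measure of size either. A fit with the product of genotype and sex kept 8 members and called 0 of them, as it called 0% of 13302 genes. Ngp alone had an unadjusted p under 0.05 there (0.0482), as did 3.95% of genes. limma-voom called 0 of the 8 too, and DESeq2 called 0 of the 6 for which it gave a p.

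Other neutrophil genes followed in part. Of 5 azurophil granule genes, Mpo, myeloperoxidase, had 8 reads in Tau-P301L library 4 and 2 in Tau-P301L library 2. Elane, neutrophil elastase, had 5 reads, all in Tau-P301L library 4. Prtn3, Ctsg and Ms4a3 had none in any library. In a list of 22 further neutrophil genes Csf3r, the receptor for granulocyte colony-stimulating factor, which microglia also express, was the single one tested. Csf3r averaged 891.2 ± 189.3 CPM (SD, n = 4 wild-type) against 634.7 ± 271.6 CPM (SD, n = 5 Tau-P301L), or -0.51 on the log2 scale (SE 0.28, edgeR adjusted p = 0.789). The other 21 had 234 reads in all, 128 of them in Tau-P301L library 4, 30 in wild-type library 3 and 4 to 19 in each of the rest.

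Within that list, Trem1, an activating receptor of neutrophils and monocytes, had 23 reads in Tau-P301L library 4 and 2 in wild-type library 3. Chil3, a chitinase-like protein, had 18 reads in Tau-P301L library 4 and 5, 1, 7 and 5 in wild-type libraries 1 to 4. Ly6g, the surface antigen by which mouse neutrophils are usually sorted, had 1 read in Tau-P301L library 4, 1 in wild-type library 3 and 3 in Tau-P301L library 1. Slpi, Stfa1, Stfa2 and Asprv1 had none in any library. The set as a whole was therefore not uniformly detected where the 10 members were high. Reads that align to several places are not in the counts, so genes with close copies may be undercounted.

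Among transcription factors of the lineage, Cebpe and Gfi1, which act in granule formation, had no read in any library. The 4 that were tested are also expressed by microglia and none passed for genotype (edgeR), with 1 higher and 3 lower estimates. Of these, Spi1, which encodes PU.1, was at -0.56 on the log2 scale (SE 0.32, adjusted p = 0.789), Cebpb at -0.67 (SE 0.65, adjusted p = 0.867) and Cebpa at -0.23 (SE 0.38, adjusted p = 0.933). In a list of 16 receptors, ligands and inhibitors of the members' products, 8 were tested and 0 passed, with 4 higher and 4 lower estimates. Lrp1, an uptake receptor that binds lactoferrin, was at -0.68 (log2, SE 0.28, adjusted p = 0.772), and Slc22a17, a lipocalin receptor, at -0.88 (SE 0.51, adjusted p = 0.789). Cxcr4, which holds neutrophils in the marrow, was at 1.17 (SE 0.83, adjusted p = 0.817). The Cxcr2 ligand Cxcl5 had 7 reads in Tau-P301L library 4 and 1 in Tau-P301L library 3. Cxcl1 and Cxcl2 had 3 reads and 1 read in all, and Cxcl3 and Ppbp had none.

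Among the lists for other cell types, only that of red blood cells had its highest sum in Tau-P301L library 4. The summed level of 9 monocyte markers was 72.5 CPM in Tau-P301L library 4, within the 46.9 to 81.6 CPM of that group, and was lowest of all, 25.5 CPM, in wild-type library 3. All 9 were detected, with Ly6c2 at 1 read in all and Ccr2 and Vcan the most read. The 6 markers of border macrophages stood at 52.2 CPM in Tau-P301L library 4 (group range 50.1 to 94.8) and 30.8 CPM in wild-type library 3 (group range 30.8 to 102.3). Microglial markers stood at 9324 and 13975 CPM in those libraries. The summed level of 4 astrocyte markers was 410.2 and 242.5 CPM, and that of 4 oligodendrocyte markers 286.7 and 392.2 CPM. Of the 5 red blood cell genes, Hba-a1, Hba-a2 and Hbb-bs had no read and Hbb-bt had 1. The counts hold uniquely aligned reads, so genes with close copies, as the globin genes are, may be undercounted. Alas2 had 21 reads in Tau-P301L library 4, 17 in Tau-P301L library 2 and 3 in wild-type library 3. B cell, T and NK cell and mast cell markers each summed to at most 3.45 CPM in any library, and platelet markers to at most 7.98 CPM. None of the tested genes in these lists passed for genotype in edgeR. Their part in the member levels was not tested.

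**Figure D5:**
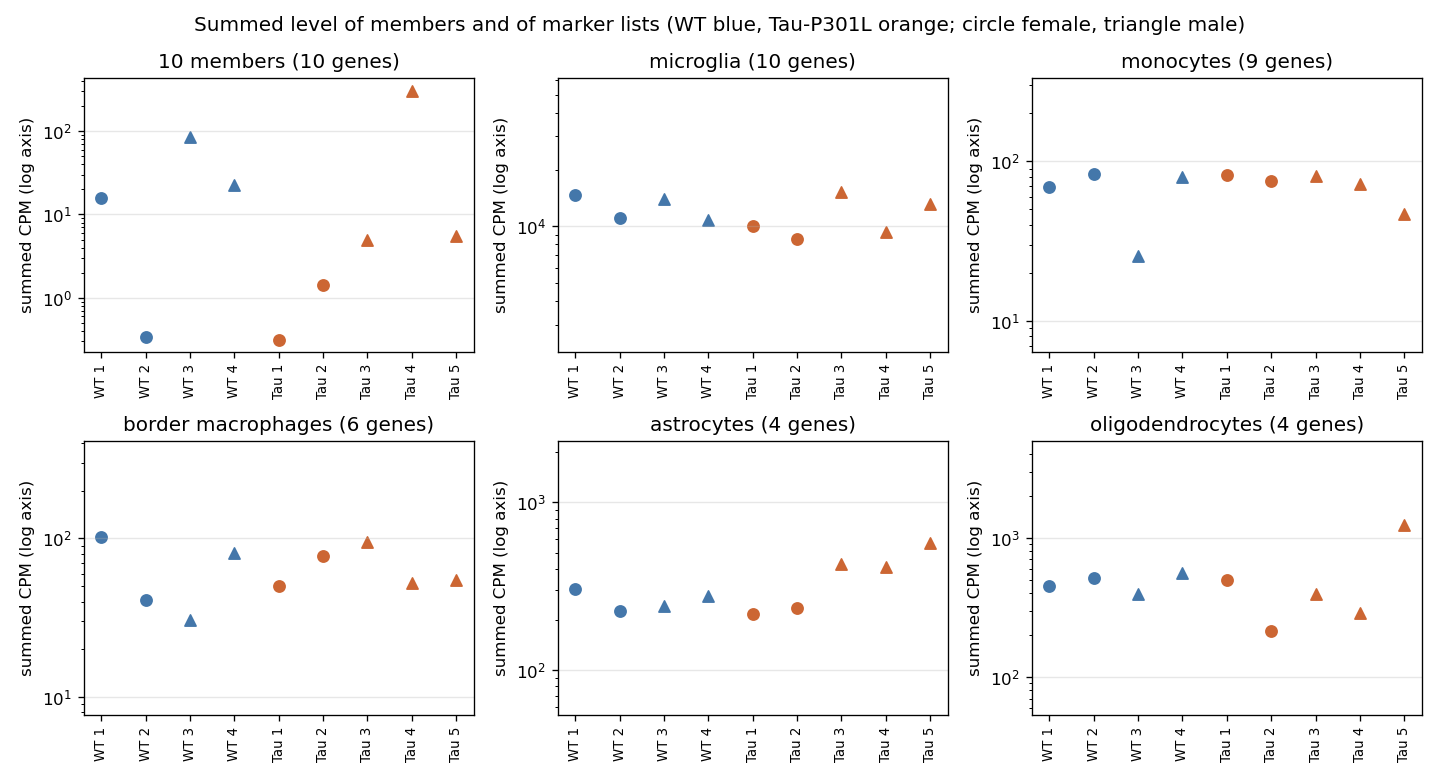
Summed CPM (log axis, 1 point per library) of the 10 members and of 5 marker lists, with wild-type in blue, Tau-P301L in orange, circles female and triangles male. The members span 0.315 to 303.3 CPM, while microglial markers span 8566 to 15255 CPM and monocyte markers 25.5 to 82.9 CPM.

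The tested genes whose levels were most like the summed member level were ranked by Pearson's r over the 9 libraries, as a description. The members themselves were left out of the ranking. The genes named are the extremes of 12250 tested genes over only 9 libraries. How high r would reach for unrelated genes was not tested. Chgb, which encodes the secretory granule protein chromogranin B of neurons and endocrine cells, came first at r = 0.932. It had 78, 54, 133 and 174 reads in wild-type and 52, 66, 71, 228 and 49 in Tau-P301L libraries. Ppp1r10 (0.900), Zfp36 (0.893), Mrtfb (0.892), Tmem120b (0.892), LOC102631992 (0.878), Fis1 (0.878) and Angptl2 (0.862) followed. With group means subtracted Chgb and Ppp1r10 again led, at 0.951 and 0.921. No gene of the other neutrophil lists was among them, and of those genes most were too low to enter the ranking. Zfp36, an RNA-binding protein that shortens the life of inflammatory transcripts, had 116 to 373 reads per library.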

How the data were processed

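Each of the 9 files listed genes by Entrez number for 1 library. Per the file headers, the deposited counts hold uniquely aligned reads per gene, and the deposited RPKM values include a size factor for each sample that the authors applied. The submitters' processing notes name GSNAP and the build GRCm38. The annotation, versions and strand use were not given in the sources used here. A RefSeq table (GRCm38.p6) gave symbols and positions for 31049 of 36528 gene numbers, with 96.93 to 97.98% of reads. All tests used the counts. Genes were tested in edgeR 4.0.16 (R 4.3.3) by quasi-likelihood, with TMM scaling, the default low-count filter, robust dispersions, genotype and sex as terms, and Benjamini-Hochberg adjustment over all tested genes at 0.05, with 6 residual degrees of freedom. DESeq2 1.42.0 and limma-voom (limma 3.58.1) were alternatives, beside other scalings, filters and left-out libraries. Standard errors derive from the F statistic. A pseudocount of 1 CPM was used for correlations.

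The members, the 20 gene lists and the tests were chosen with earlier results of these data known. The rule for names takes all 10 members. From each other list it takes genes past the threshold, or else up to 3 of smallest p among those tested, or with most reads where none was tested. It also takes the 8 genes most like the members. Trem1, Chil3, Ly6g, the ligands of Cxcr2, Alas2 and genes at or near 0 were named after their values were seen.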

Additional observations from a re-analysis of the deposited data

Results flagged for a closer look

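In 11 of the 22 sets of libraries examined (each member, and the sum of the members, in each genotype group), 1 library lay far from the rest. Its gap to the nearest, divided by the range of the set, was above Dixon's 95% critical value. Chance flags about 1 in 20 such groups where values are normally distributed, which these low counts are not. Over all genes with at least 16 reads, 14% were flagged in the Tau-P301L group and 9.6% in the wild-type group, against 9 and 1 of the 10 members. The members share their libraries, so these are not separate findings. In Tau-P301L library 4 this held for S100a8 at 44.54 CPM, S100a9 at 57.26 CPM, Ngp at 88.22 CPM, Camp at 6.786 CPM, Lcn2 at 25.03 CPM, Ltf at 25.45 CPM, Mmp8 at 20.78 CPM, Mmp9 at 2.121 CPM and Cxcr2 at 22.9 CPM. The summed level of the members there was 303.3 CPM. Retnlg was the member for which that library was not flagged. Among wild-type libraries only Cxcr2 in library 3, at 7.221 CPM, was far from the others.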

How the results depend on the processing

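The count of tested genes called for genotype was 1, and 27 with DESeq2, 26 with no low-count filter, 0 to 1 with each library left out in turn, and 0 without Tau-P301L libraries 3 and 5, in females alone and in males alone. Apart from 1 fit no setting called a member for genotype. With no low-count filter and without Tau-P301L library 4, added after the data were seen, 1 member was called. That fit gave log2 fold changes of -3.15 for S100a8, -5.07 for S100a9 (now past the threshold) and -3.49 for Ngp. With wild-type library 3 left out too they were -2.32, -3.92 (no longer past it) and -3.22, and 0 members were called. The members called for sex went from 0 to 4 with no low-count filter and to 4 without Tau-P301L libraries 3 and 5.

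The genotype estimate of S100a8 changed sign with DESeq2 (-0.128) and limma-voom (-0.698), and ran from -0.404 (without wild-type library 4) to 0.797 with single libraries left out. That of Ngp changed sign with DESeq2 (-0.757) and ran from -1.29 to 2.27, being negative without wild-type library 3 (-1.01) or 4. That of S100a9 turned to 0.472 without Tau-P301L libraries 3 and 5, and ran from -1.45 to -0.0644 with single libraries left out. Without Tau-P301L library 4, with the stricter filter and in females alone no member passed the filter and no estimate was made. The summed member level in Tau-P301L over wild-type, 1.03 on the log2 scale, turned to -0.195 as a mean of log2 CPM, to -3.22 in females alone and to -2.09 without Tau-P301L library 4 and wild-type library 3. With single libraries left out it ran from -3.34 (without Tau-P301L library 4) to 2.29. The cause of these changes was not tested beyond the libraries named. Of 151 values recomputed, 120 kept their direction and side of the threshold or stayed within the spread. This tally is no measure of stability. It counts as kept the settings with 0 members called where none passed the filter or had a p. For the summed level the spread was 2.80 log2 units, so 2.29 against 1.03 also counts as kept. The number of member pairs with rho above 0 was 36 of 36 under the scalings, the thinning, the group and sex centring and each left-out library. No paired analysis was possible because the labels give no replicate numbers shared between the groups. With 3 reads worth up to 2.07 CPM, most members are at the limit of depth in most libraries.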
